A study of Homo sapiens with 12 samples.

Results

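The enzymes of lower glycolysis were followed at the mRNA level in RCC4 cells, an established clear cell renal carcinoma line that lacks functional VHL. The list was a set of named genes, ALDOA, ALDOC, TPI1, GAPDH, PGK1, PGAM1, ENO1, ENO2, LDHA and LDHB, which serve steps between aldolase and lactate dehydrogenase. Pyruvate kinase is not among them, and its gene PKM was counted with the upper glycolysis list. All 10 were present among the 23106 gene symbols of each library, and all 10 passed the filter on low counts that left 13000 genes for testing. Cells were harvested 48 h after transfection with pools of siRNA, in 4 groups of 3 replicates. Control cells received 2 nM of control siRNA, the HIF1A siRNA group 1 nM of HIF1A siRNA with 1 nM of control siRNA, the HIF2A siRNA group 1 nM of HIF2A siRNA (against EPAS1) with 1 nM of control siRNA, and the double knockdown 1 nM of each HIF siRNA. All groups therefore share the VHL-deficient background and the total siRNA dose, and no group had VHL restored.

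These enzymes carry fructose-1,6-bisphosphate to phosphoenolpyruvate, with NADH made at the GAPDH step and ATP at the PGK1 step. Once pyruvate kinase has made pyruvate, lactate dehydrogenase interconverts pyruvate and lactate. HIF-1 and HIF-2 are transcription factors that pair HIF-1α or HIF-2α with HIF-1β and bind a short core, the hypoxia response element, in DNA. VHL normally marks the α subunits for degradation when oxygen is present, so that both stay stable in cells without VHL. Several steps are served by more than one gene, which gives paralogs with distinct tissue patterns, such as the brain-enriched ALDOC and ENO2 beside the widely expressed ALDOA and ENO1.

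The libraries held 13263168 to 20451433 counts each. HIF1A mRNA fell with HIF1A siRNA to between 12.5 and 30.6% of the control library of the same replicate number, and control replicate 2 had the lowest HIF1A level of the controls, at 58.2 CPM (counts per 1000000 counts of a library, after TMM scaling) against 120 and 112. In the double knockdown, HIF1A lay at 24.2 to 32.2 CPM, above the highest value with HIF1A siRNA alone (22.2 CPM). The 32.2 CPM was in replicate 2, against 58.2 CPM in its control, the weakest knockdown of HIF1A among the pairs. EPAS1 was at 8.60% of control or less in every library that received HIF2A siRNA. For EPAS1, the log2 fold change with HIF1A siRNA was -0.47 (adjusted p = 0.275, edgeR's quasi-likelihood test). The renal markers PAX8, PAX2, KRT8, KRT18, CDH2, VIM and CA9 were detected in every library. Of 11 markers of leukocytes, endothelium, fibroblasts and pericytes, PTPRC, CD3E and PECAM1 had 0 counts in all 12, VWF, CDH5, COL1A2 and DCN were at 0 in some libraries, and LYZ, RGS5, PDGFRB and COL1A1 were detected in every library. The 11 summed to 31.0 to 47.2 CPM with control siRNA, 23.9 to 50.3 with HIF1A siRNA, 34.2 to 85.7 with HIF2A siRNA and 22.9 to 66.7 in the double knockdown, most of it COL1A1, without which the sums were 4.47 to 16.4 CPM over all libraries. The part of these markers in the results was not tested. In bulk RNA, fewer cells and less RNA per cell cannot be told apart.

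HIF1A siRNA lowered 9 of the 10 enzymes against control siRNA, and the exception was LDHB. The falls ranged from ALDOC, at no more than 27.3% of control in each of the 3 pairs, and ENO2, at 29.7 to 34.4%, to ENO1, at 64.8 to 75.1%. By comparison, 1.33% of all genes tested were called lower at an adjusted p under 0.05 (quasi-likelihood test of edgeR, adjusted after Benjamini and Hochberg over 13000 genes). The median log2 fold change of the 10 enzymes was -0.90, against 0.00324 over all genes tested. This count depended on comparing libraries of the same replicate number. Without the replicate block 4 of the 10 were called lower, namely ALDOC, TPI1, PGK1 and LDHA, and without replicate 3 the number was 5. Together the 10 genes took 2.12% ± 0.169 (SD, n = 3) of all counts with control siRNA, 1.28% ± 0.151 with HIF1A siRNA, 2.20% ± 0.166 with HIF2A siRNA and 1.23% ± 0.117 in the double knockdown.

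The double knockdown against HIF2A siRNA gives the effect of HIF1A siRNA a second time, in cells with little EPAS1 mRNA. It contrasts other libraries than the comparison with control siRNA. Both come from one fit of all 12 libraries and share its estimate of the spread and its replicate block, so their p-values are not independent. Again 9 of the 10 enzymes fell and LDHB was the exception, where 3.22% of all genes tested were called lower. The median log2 fold change was -1.19 for the 10 enzymes and 0.00423 over all genes.

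**Figure D1:**
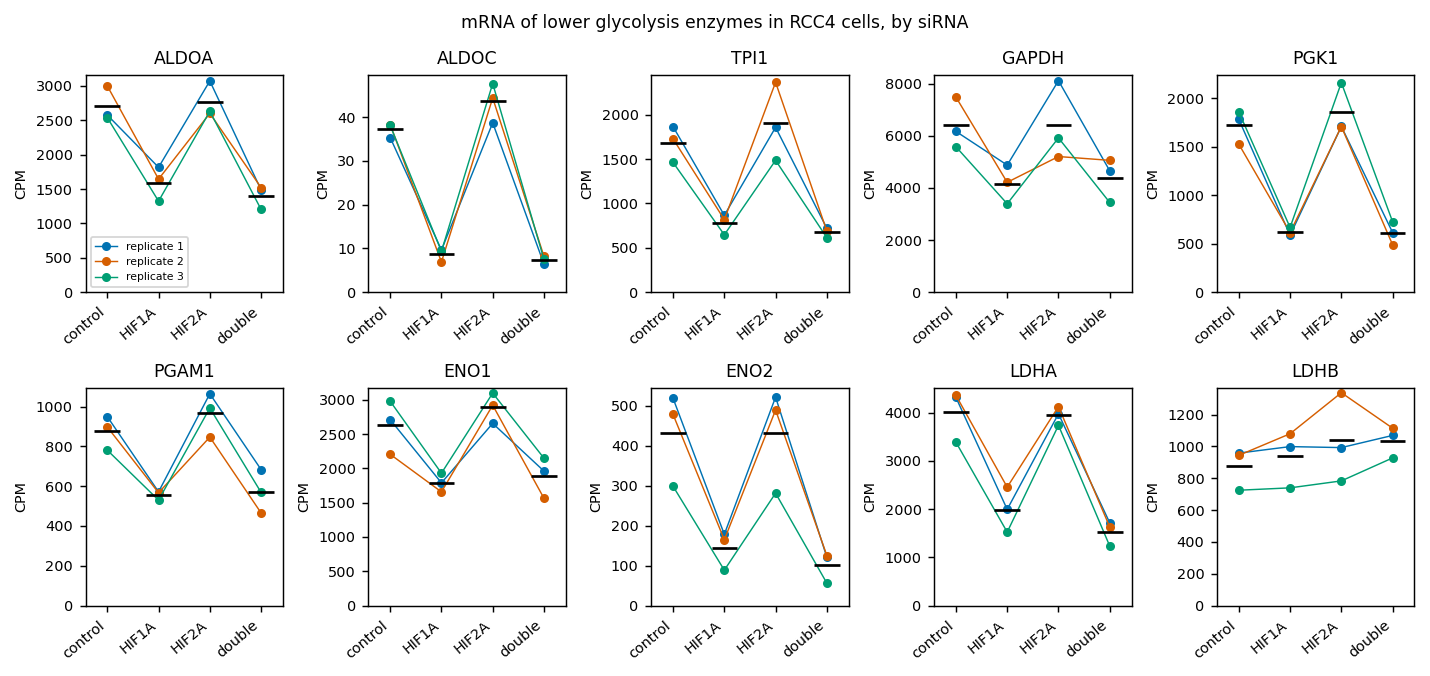
CPM of the 10 enzymes in each of the 12 RCC4 libraries, on linear axes from 0, by siRNA group, with points joined by replicate number and a bar at each group mean. The libraries with HIF1A siRNA, alone or in the double knockdown, lie below those without it for all of these enzymes except LDHB. The share of all genes tested that separate in this way was not computed. Replicate 3 is lowest for ENO2 in each group.

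Aldolase cleaves fructose-1,6-bisphosphate into a pair of triose phosphates. ALDOA, the main form in this line, was at 2576, 3000 and 2538 CPM in the control libraries and at 1816, 1645 and 1324 CPM with HIF1A siRNA. HIF2A siRNA left it at 3072, 2601 and 2631 CPM, and the double knockdown at 1487, 1522 and 1204 CPM. All 6 libraries with HIF1A siRNA were thus below all 6 without it. The log2 fold change was -0.77 (SE 0.106, adjusted p = 0.000728) against control siRNA and -0.99 (SE 0.106, adjusted p = 3.92e-05) between the double knockdown and HIF2A siRNA.

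ALDOC was far less abundant and fell by the largest factor of the 10 genes. Its levels were 35.4, 38.3 and 38.1 CPM with control siRNA, and 9.64, 6.90 and 9.34 CPM with HIF1A siRNA. They were 38.7, 44.4 and 47.7 CPM with HIF2A siRNA, and 6.42, 8.20 and 7.50 CPM in the double knockdown. The groups with and without HIF1A siRNA did not overlap, and the log2 fold change was -2.10 (SE 0.156, adjusted p = 1.80e-06) against control siRNA and -2.57 (SE 0.159, adjusted p = 1.62e-07) between the double knockdown and HIF2A siRNA.

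The bases before a transcription start of each aldolase gene are shown, with the cores of the hypoxia response element, for the paralogs ALDOA and ALDOC. The sequences come from RefSeq (GRCh38.p14) and hold the 250 bases that end just before the start, written 5′ to 3′ along the gene, at chr16:30065510-30065759 on the + strand for ALDOA and at chr17:28576896-28577145 on the - strand for ALDOC. Capitals mark each ACGTG or GCGTG core, read on either strand, so that CACGT and CACGC are cores on the opposite strand, and CACGTG holds ACGTG on both strands and counts as 2 cores. The ALDOA stretch held 1 core and the ALDOC stretch 5. RefSeq lists 3 starts for ALDOA, whose windows, taken to 50 bases past the start, held 1, 2 and 1 cores, and the start shown is that of the canonical GENCODE transcript, whereas ALDOC has 1 start.
ALDOA: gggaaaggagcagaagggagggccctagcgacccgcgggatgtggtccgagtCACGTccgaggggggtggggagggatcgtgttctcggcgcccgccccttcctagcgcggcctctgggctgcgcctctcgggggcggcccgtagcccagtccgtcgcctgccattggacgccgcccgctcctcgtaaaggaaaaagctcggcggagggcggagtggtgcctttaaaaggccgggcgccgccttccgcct
ALDOC: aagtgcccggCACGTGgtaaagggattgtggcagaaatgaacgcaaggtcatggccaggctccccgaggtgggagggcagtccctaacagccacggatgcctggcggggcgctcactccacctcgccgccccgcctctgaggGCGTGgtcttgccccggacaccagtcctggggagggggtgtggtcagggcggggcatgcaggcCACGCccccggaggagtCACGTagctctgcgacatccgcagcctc

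TPI1, which interconverts the triose phosphates, has no second gene among those followed. It was at 1866, 1728 and 1462 CPM in control cells and 866, 818 and 647 CPM with HIF1A siRNA, a log2 fold change of -1.12 (SE 0.109, adjusted p = 2.33e-05). With HIF2A siRNA it was at 1858, 2365 and 1486 CPM, and in the double knockdown at 720, 689 and 615 CPM, a log2 fold change of -1.48 between these groups (SE 0.110, adjusted p = 8.42e-07). Every library with HIF1A siRNA held less TPI1 mRNA than every library without it. In the gene models, a TPI1 exon overlaps an exon of SPSB2 on the opposite strand by 14 bases, and whether the counting used strand was not stated.

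GAPDH makes 1,3-bisphosphoglycerate and NADH, and was the most abundant of the 10 mRNAs. It was at 6166, 7482 and 5578 CPM with control siRNA and at 4875, 4214 and 3391 CPM with HIF1A siRNA. HIF2A siRNA gave 8111, 5203 and 5918 CPM, and the double knockdown 4657, 5057 and 3442 CPM. The groups did not overlap, but double knockdown replicate 2 was at 97.2% of its HIF2A siRNA partner. The log2 fold change was -0.64 (SE 0.140, adjusted p = 0.0332) for HIF1A siRNA and -0.56 (SE 0.140, adjusted p = 0.0391) between the double knockdown and HIF2A siRNA. These calls were the least stable of the 9, and were lost in 11 of 23 and in 13 of 22 other analyses, with adjusted p up to 0.863 and 0.617.

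PGK1 makes the first ATP of the pathway, and its fold change was larger than that of GAPDH, the preceding enzyme. It was at 1782, 1527 and 1858 CPM in control cells and 587, 615 and 668 CPM with HIF1A siRNA, a log2 fold change of -1.46 (SE 0.105, adjusted p = 1.33e-06). After HIF2A siRNA it stood at 1709, 1709 and 2161 CPM, and in the double knockdown at 616, 489 and 726 CPM, a log2 fold change of -1.61 (SE 0.105, adjusted p = 2.39e-07). The 6 libraries with HIF1A siRNA lay well below the other 6. The 95% confidence intervals of the HIF1A siRNA effect were -1.69 to -1.24 for PGK1 and -0.93 to -0.34 for GAPDH, and the difference between the genes was not tested.

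PGAM1, which moves the phosphate group of phosphoglycerate, fell less. Its levels were 950, 898 and 781 CPM with control siRNA, 572, 567 and 530 CPM with HIF1A siRNA, 1065, 847 and 993 CPM with HIF2A siRNA, and 684, 466 and 569 CPM in the double knockdown. The libraries with and without HIF1A siRNA did not overlap. The log2 fold change was -0.65 (SE 0.114, adjusted p = 0.00602) against control siRNA and -0.76 (SE 0.114, adjusted p = 0.000955) between the double knockdown and HIF2A siRNA. PGAM4, a retrocopy of PGAM1 that could share reads with it, had 12.5 to 16.7 CPM in the controls and -0.77 as its log2 fold change after HIF1A siRNA (adjusted p = 0.144).

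Enolase forms phosphoenolpyruvate, and its genes behaved differently in level, spread and response. ENO1 was at 2713, 2207 and 2981 CPM with control siRNA and at 1790, 1658 and 1931 CPM with HIF1A siRNA. It was at 2658, 2923 and 3100 CPM with HIF2A siRNA and at 1962, 1565 and 2150 CPM in the double knockdown. The highest library with HIF1A siRNA stayed below the lowest without it, and the log2 fold changes were -0.55 (SE 0.101, adjusted p = 0.00870) against control siRNA and -0.63 (SE 0.101, adjusted p = 0.00197) between the double knockdown and HIF2A siRNA.

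ENO2 was at 518, 478 and 298 CPM with control siRNA and at 178, 164 and 88.4 CPM with HIF1A siRNA. It was at 521, 489 and 281 CPM with HIF2A siRNA and at 121, 125 and 55.9 CPM in the double knockdown. Replicate 3 was low in each of the 4 groups, with a mean deviation of -0.61 on the log2 scale from the group means, and the ratio within a replicate was far steadier than the level. The log2 fold change was -1.61 (SE 0.105, adjusted p = 5.77e-07) against control siRNA and -2.13 (SE 0.107, adjusted p = 1.55e-08) between the double knockdown and HIF2A siRNA. Without the replicate block, the first of these had a log2 fold change of -1.59 and was not called (adjusted p = 0.166).

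The stretches before the enolase starts are given in the same form. That of ENO1 lies at chr1:8878687-8878936 on the - strand and that of ENO2 at chr12:6914330-6914579 on the + strand. ENO1 held 2 cores, both GCGTG, and ENO2 held 1 core, an ACGTG at -118 to -114 from the start.
ENO1: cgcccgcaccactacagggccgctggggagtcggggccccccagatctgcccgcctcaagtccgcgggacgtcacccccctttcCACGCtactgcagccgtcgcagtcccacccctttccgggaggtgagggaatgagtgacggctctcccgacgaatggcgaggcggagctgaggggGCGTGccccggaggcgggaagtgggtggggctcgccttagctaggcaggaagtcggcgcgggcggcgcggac
ENO2: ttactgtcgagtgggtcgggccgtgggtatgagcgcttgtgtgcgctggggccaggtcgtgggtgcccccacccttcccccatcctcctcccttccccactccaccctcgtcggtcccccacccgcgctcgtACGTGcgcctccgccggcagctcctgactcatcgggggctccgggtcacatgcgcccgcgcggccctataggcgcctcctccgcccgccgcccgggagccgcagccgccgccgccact

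Lactate dehydrogenase is a tetramer of LDHA and LDHB subunits, of which LDHA favours the making of lactate from pyruvate and LDHB the reverse reaction. LDHA was at 4318, 4362 and 3390 CPM in control cells and at 1995, 2456 and 1524 CPM with HIF1A siRNA. It was at 3979, 4129 and 3740 CPM with HIF2A siRNA and at 1717, 1631 and 1235 CPM in the double knockdown. No library with HIF1A siRNA reached the level of any library without it. The log2 fold change was -1.03 (SE 0.107, adjusted p = 4.24e-05) against control siRNA and -1.39 (SE 0.108, adjusted p = 1.32e-06) between the double knockdown and HIF2A siRNA.

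LDHB was at 958, 944 and 725 CPM with control siRNA, 999, 1080 and 740 CPM with HIF1A siRNA, 993, 1338 and 784 CPM with HIF2A siRNA, and 1070, 1115 and 928 CPM in the double knockdown. These groups overlapped. Against control siRNA, its log2 fold change was 0.09 with HIF1A siRNA (95% confidence interval -0.14 to 0.32, adjusted p = 0.891), 0.23 with HIF2A siRNA (-0.00209 to 0.46, adjusted p = 0.752) and 0.25 in the double knockdown (0.02 to 0.48, adjusted p = 0.153). The intervals leave out a fall of the size seen for any other enzyme with HIF1A siRNA. LDHB was higher than its control partner in all 3 pairs of each of these comparisons, which share their controls.

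In the stretches before the lactate dehydrogenase starts, shown because LDHA was called lower with HIF1A siRNA and LDHB was not, LDHA (chr11:18394313-18394562, + strand) held 5 ACGTG cores, 4 of them in a pair of CACGTG sites, and LDHB (chr12:21657843-21658092, - strand) held 0. LDHA has a second listed start, whose window held 1 core, and LDHB has a GCGTG after its start, outside this stretch. The windows of PGAM1 and of the canonical TPI1 start held 0 cores, and both genes were also called lower with HIF1A siRNA.
LDHA: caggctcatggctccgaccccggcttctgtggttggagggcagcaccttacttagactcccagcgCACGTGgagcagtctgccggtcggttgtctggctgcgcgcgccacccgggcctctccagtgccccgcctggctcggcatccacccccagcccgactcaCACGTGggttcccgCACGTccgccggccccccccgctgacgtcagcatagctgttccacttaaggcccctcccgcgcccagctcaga
LDHB: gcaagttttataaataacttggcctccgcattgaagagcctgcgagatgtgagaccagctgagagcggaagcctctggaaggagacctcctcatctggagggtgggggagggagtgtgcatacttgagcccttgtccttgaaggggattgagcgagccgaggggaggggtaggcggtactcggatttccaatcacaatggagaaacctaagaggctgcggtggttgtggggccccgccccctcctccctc

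Over the whole RefSeq windows, which add the 50 bases after each start, the 10 genes had 14 annotated starts, and 12 of the 14 (85.7%) held at least 1 core and 7 (50%) at least 2. Among 13885 such windows of the genes tested, 60.2% held at least 1 core and 31.2% at least 2, and the shares over all 35116 windows were 48.4% and 23.1%. ACGTG alone was in 9 of the 14 windows, in 25.3% of those of genes tested and in 21.4% of all windows, and CACGTG was in 7.26% of all windows. The windows of PGK1 and LDHA were among the richest, with 4 and 6 cores, while 6.47% of the windows of genes tested held at least 4. PGAM1 had no core in its window, and LDHB had 1 GCGTG after its start. The window of PGAM1 begins from a start 1627 bases downstream of that of its canonical GENCODE transcript, and the window of GAPDH from one 747 bases downstream, so that other starts of these genes were not searched. A match describes letters and not a site of binding, and a link of cores to the siRNA responses was not tested.

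**Figure D2:**
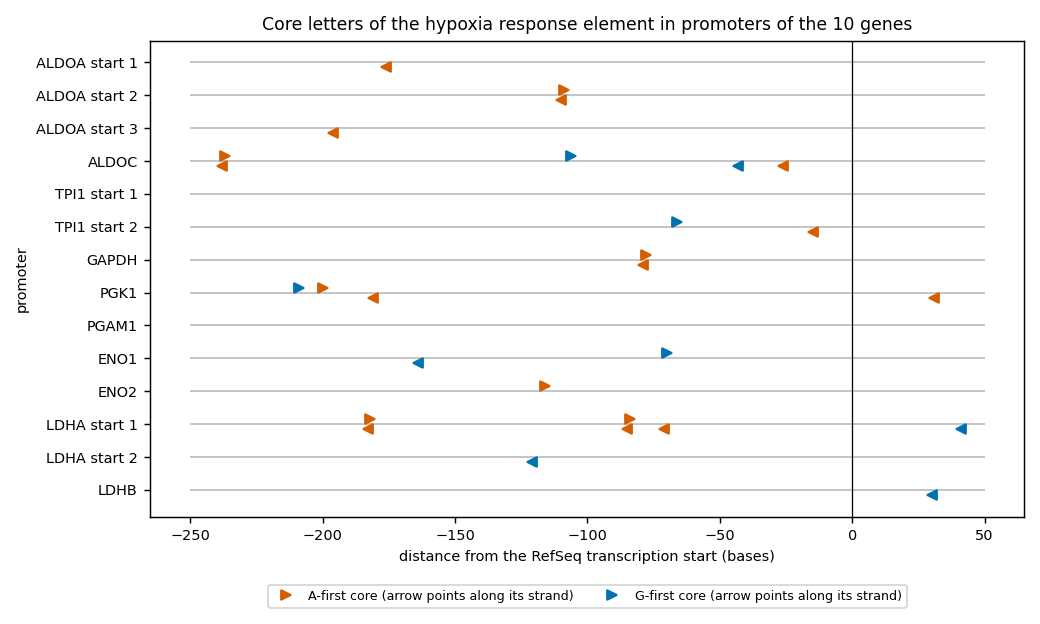
Positions of the cores in the 14 RefSeq promoter windows of the 10 genes, from 250 bases before to 50 bases after each start, with the distance from the start on the x axis and arrows pointing along the strand that reads the core. LDHA start 1 and ALDOC hold 6 and 5 cores, and TPI1 start 1 and PGAM1 hold none.

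HIF2A siRNA alone changed none of the 10 enzymes detectably. The log2 fold changes against control siRNA lay between -0.02 and 0.23, with a median of 0.12, and 0 of the 10 passed an unadjusted p under 0.05 in edgeR or were called by DESeq2, where 0.2% of all genes tested were called in either direction. For the members that fell most with HIF1A siRNA, the 95% confidence intervals were -0.08 to 0.53 for ALDOC, -0.24 to 0.20 for ENO2 and -0.11 to 0.33 for PGK1. ALDOC was higher than its control partner in 3 of 3 pairs, at 109.5 to 125% of it, and the groups did not overlap, yet the adjusted p was 0.816. EPAS1 itself was at 5.46 to 8.60% of control in these libraries.

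A direct comparison of the HIF1A siRNA and HIF2A siRNA groups gave 9 of 10 enzymes lower with HIF1A siRNA, where 1.46% of all genes were called lower. The number was 4 without the replicate block and 5 without replicate 3. The log2 fold changes ranged from -2.32 for ALDOC (adjusted p = 4.24e-07) to -0.13 for LDHB (95% confidence interval -0.36 to 0.10, adjusted p = 0.672). Here the effects of the siRNAs are set against each other in one test, so the contrast does not rest on one comparison passing a threshold and another missing it.

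**Figure D3:**
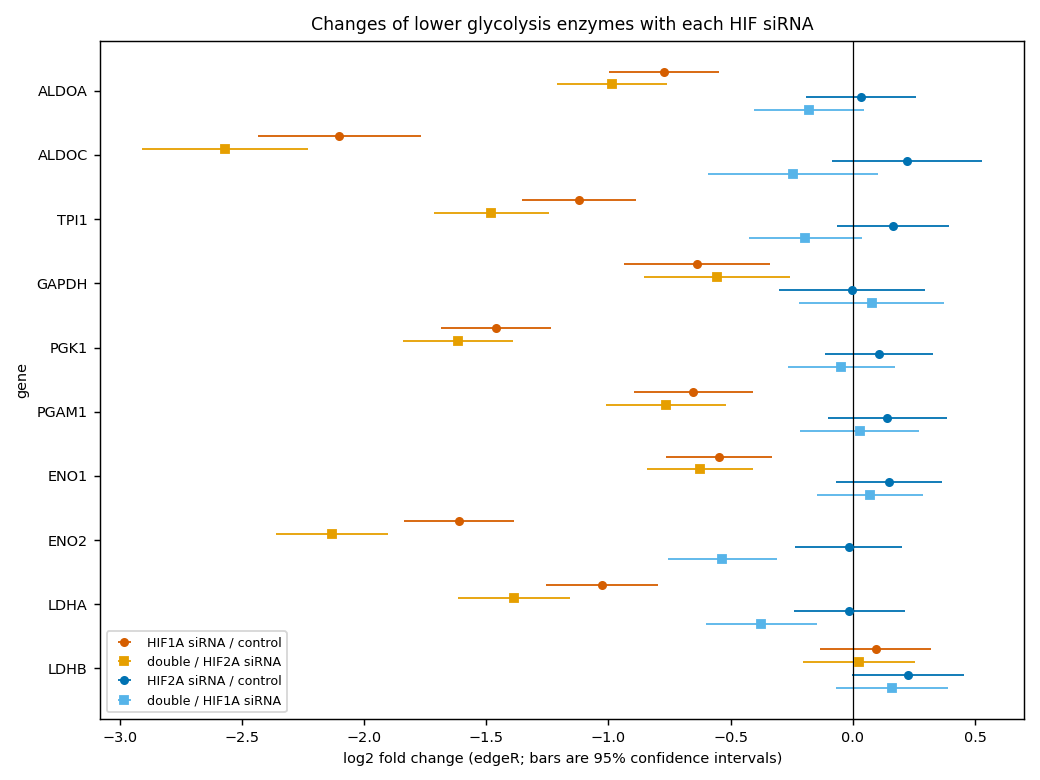
Log2 fold changes of the 10 enzymes from edgeR, with 95% confidence intervals as bars. For HIF1A siRNA, circles are against control siRNA and squares are the double knockdown against HIF2A siRNA. For HIF2A siRNA, circles are against control siRNA and squares are the double knockdown against HIF1A siRNA. The HIF1A siRNA effects lie between -2.57 and -0.55 except for LDHB, and the HIF2A siRNA effects between -0.53 and 0.23, with ENO2 lowest.

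In the double knockdown against control siRNA, 9 of the 10 enzymes were lower, where 6.42% of all genes were called lower, and the median log2 fold change was -1.13 for the enzymes and 0.00477 for all genes. This comparison shares its control libraries with the single siRNA comparisons. Adding HIF2A siRNA to HIF1A siRNA lowered 1 of the 10 enzymes further, ENO2, where 0.969% of all genes were called lower. ENO2 stood at 63.3 to 76.0% of its HIF1A siRNA partner in the 3 pairs, a log2 fold change of -0.53 (SE 0.104, adjusted p = 0.0184), although the groups overlapped because replicate 3 was low in both. The call was lost in 8 of 22 other analyses, among them the fit without the replicate block (log2 fold change -0.51, 0 enzymes called).

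LDHA was also lower in the double knockdown than with HIF1A siRNA in 3 of 3 pairs, at 66.4 to 86.1%, with a log2 fold change of -0.37 (95% confidence interval -0.60 to -0.15, adjusted p = 0.114), and was called in 3 of 22 other analyses. The remaining 8 enzymes had log2 fold changes from -0.24 for ALDOC to 0.16 for LDHB, and none was called. HIF1A mRNA itself had a log2 fold change of 0.66 in the double knockdown against HIF1A siRNA alone (adjusted p = 0.182), and its part in the ENO2 result was not tested.

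Whether the siRNAs act differently together was tested by the interaction, the HIF1A siRNA effect after HIF2A siRNA minus that after control siRNA. None of the 10 enzymes and 0 of 13000 genes (0%) passed the adjusted threshold in edgeR, while 4 of the 10 enzymes and 318 genes had an unadjusted p under 0.05 and DESeq2 called 11 genes, none of them an enzyme of the list. Those 4 were ENO2, with an interaction of -0.52 on the log2 scale (95% confidence interval -0.83 to -0.21), ALDOC at -0.47 (-0.93 to -0.00349), LDHA at -0.36 (-0.68 to -0.04) and TPI1 at -0.36 (-0.68 to -0.03), all with an adjusted p of 0.999. A larger fall of these enzymes in the double knockdown than the single siRNAs add up to was therefore not shown.

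Because a ratio of counts of a gene pair within a library needs no scaling, the paralogs were compared in 6 pairs of libraries with and without HIF1A siRNA, matched for replicate number and for HIF2A siRNA. The log2 ratio of ALDOA to ALDOC rose by 1.47 ± 0.209 (SD, 6 of 6 pairs) with HIF1A siRNA, and that of ENO1 to ENO2 by 1.29 ± 0.355 (6 of 6 pairs). The less abundant aldolase and enolase thus fell by more than their abundant partners. For lactate dehydrogenase the abundant gene fell, and the log2 ratio of LDHA to LDHB changed by -1.27 ± 0.299 (lower in 6 of 6 pairs). In an exact two-sided sign-flip permutation test each of the 3 changes had p = 0.03125, the smallest that 64 sign patterns allow, and the same value after adjustment over the 3 pairs. The 6 pairs come from 3 replicate numbers, so they cannot be taken as independent.

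With HIF2A siRNA, the same ratios changed by -0.07 ± 0.309 for the aldolases (adjusted p = 0.594), by 0.38 ± 0.323 for the enolases (adjusted p = 0.0938) and by -0.38 ± 0.278 for the lactate dehydrogenases (adjusted p = 0.0938), in exact permutation tests over 6 pairs. The enolase and lactate dehydrogenase ratios moved in 5 of 6 pairs in the direction that HIF1A siRNA moved them, and neither passed the threshold.

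To compare levels between genes, counts were divided by the length of the canonical transcript. On this scale ALDOC made up 1.39% ± 0.112 (SD, n = 3) of the aldolase mRNA in control cells, 0.560% ± 0.145 with HIF1A siRNA, 1.60% ± 0.290 with HIF2A siRNA and 0.539% ± 0.0968 in the double knockdown. ENO2 made up 11.5% ± 3.79 of the enolase mRNA in control cells, 5.92% ± 2.15 with HIF1A siRNA, 10.4% ± 3.44 with HIF2A siRNA and 4.13% ± 1.97 in the double knockdown. The ENO2 shares with HIF1A siRNA (3.43 to 7.17%) lay just below those of control cells (7.21 to 14.4%). They overlapped those with HIF2A siRNA (6.57 to 13.2%), which lay above those of the double knockdown (1.98 to 5.84%). The ENO2 share fell in each replicate that received HIF1A siRNA. LDHB made up 27.2% ± 0.374 of the lactate dehydrogenase mRNA in control cells, a share nearly equal in the 3 libraries, and 44.9% ± 1.68 with HIF1A siRNA, 30.8% ± 4.69 with HIF2A siRNA and 54.0% ± 2.33 in the double knockdown. LDHB thus exceeded LDHA per length in all 3 double knockdown libraries, at 51.7 to 56.4%. That last order depends on the lengths used, since with the median length of the coding transcripts LDHB took 21.6% in control cells and 46.5% in the double knockdown.

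**Figure D4:**
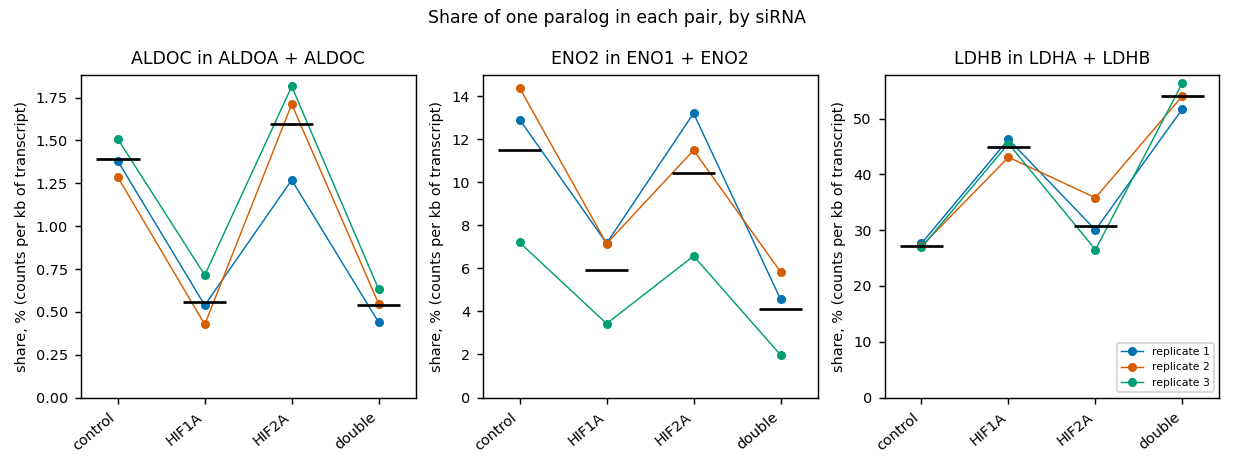
Share of ALDOC, ENO2 and LDHB in the summed counts per kb of each paralog pair, in percent, in each of the 12 libraries by siRNA group, with points joined by replicate number and bars at the group means. The share of ALDOC and ENO2 falls and that of LDHB rises in each replicate that received HIF1A siRNA, and LDHB reaches 54.0% in the double knockdown.

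In control cells the order of the mRNA levels per kb was GAPDH, LDHA, ALDOA, ENO1, TPI1, LDHB, PGAM1, PGK1, ENO2 and ALDOC. GAPDH stood clear of the rest at 4987 ± 759 CPM per kb (SD, n = 3). LDHA (1795 ± 245), ALDOA (1649 ± 156), ENO1 (1479 ± 221) and TPI1 (1248 ± 152 CPM per kb) formed a group in which neighbours differed by less than the sum of their SDs. LDHB (672 ± 100.4) and PGAM1 (486 ± 47.9), PGK1 (358 ± 36.1), ENO2 (188 ± 51.0) and ALDOC (23.2 ± 1.03 CPM per kb) followed, each separated from the next by more than that sum. With the median length of the coding transcripts, ENO1 moved from the fourth to the second place and the order from TPI1 to ALDOC was kept.

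The other paralogs of these steps were scarce. Of 12 listed, 6 passed the filter, and none of the 6 was called with HIF1A siRNA or HIF2A siRNA. PGAM4 was lower in the double knockdown against control siRNA (log2 fold change -0.94, adjusted p = 0.0143) and against HIF2A siRNA, where it was at 32.9 to 58.9% of its partner (adjusted p = 0.0177), at 4.06 to 10.5 CPM. BPGM, which makes 2,3-bisphosphoglycerate, was at 20.3 to 26.3 CPM in control cells, with 0.02 as its log2 fold change after HIF1A siRNA (adjusted p = 0.987). ENO3, the muscle enolase, was at 3.62 to 4.92 CPM in control cells and had a fold change of 0.38 on the log2 scale (adjusted p = 0.767).

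Upstream and downstream of these steps, the glucose and lactate transporters, hexokinases, phosphofructokinases, GPI and pyruvate kinases formed a list of 15 genes, of which 12 were tested. With HIF1A siRNA 6 of the 12 were lower, where 1.33% of all genes tested were called lower, and the list's median log2 fold change was -0.54. The 6 were SLC2A1 (the glucose transporter GLUT1), HK1 and HK2 (hexokinases), GPI, PFKL and SLC16A3 (the lactate exporter MCT4). SLC16A3 had the largest fall at -1.23 (adjusted p = 0.000128). With HIF2A siRNA 1 of the 12 was lower, SLC2A1, at -0.74 (adjusted p = 0.00267), where 0.2% of all genes were called in either direction. SLC2A1 was also the list's only gene called lower in the double knockdown against HIF1A siRNA, at -1.64 (adjusted p = 3.33e-07). In that comparison 0.969% of all genes were called lower. In the double knockdown against control siRNA 9 of the 12 were lower, with SLC2A3, PFKP and PKM added, where 6.42% of all genes were called lower. PKM, which follows enolase in the pathway, was at -0.26 after HIF1A siRNA (adjusted p = 0.417) and fell by 0.51 on the log2 scale in the double knockdown (adjusted p = 0.00458).

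Of 12 listed enzymes that branch off the lower steps or reverse them, 7 were tested, and none of the 7 was called lower in any comparison. PHGDH, which starts serine synthesis from 3-phosphoglycerate, did not pass the filter on low counts, at 0 to 10 counts per library. PSAT1, which acts after PHGDH in that branch, was the only one called, and was higher in the double knockdown against control siRNA, where 3.86% of all genes were called higher. It was also called higher in the double knockdown against HIF2A siRNA and against HIF1A siRNA, where 102 and 56 of the 13000 genes tested were called higher. It was at 43.1, 57.7 and 72.7 CPM with control siRNA and at 85.7, 91.8 and 120 CPM in the double knockdown, a log2 fold change of 0.79 (adjusted p = 0.000614).

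Across the 12 libraries, with the mean of each replicate number removed, the 9 enzymes other than LDHB varied together, and the 36 correlations between them lay between 0.72 and 0.99. LDHB had correlations of -0.45 to 0.07 with the others. These coefficients describe libraries that share 4 siRNA groups, and mostly restate the fall with HIF1A siRNA. Among 9276 other genes with a mean of at least 10 CPM, those most like the mean of the 10 enzymes were CA9, BNIP3, GPI, PFKFB4, FGF11, PPFIA4, C4orf3 and HILPDA, with r from 0.999 to 0.988. CA9, the carbonic anhydrase that marks clear cell tumors, fell by 3.65 on the log2 scale after HIF1A siRNA (adjusted p = 3.99e-09), and its change was 0.43 after HIF2A siRNA (adjusted p = 0.447).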

How the data were processed

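Bulk RNA-seq was analysed from 12 libraries of RCC4 cells, 4 groups of 3, grouped by the labels. The deposited files hold raw counts of reads per gene symbol. The authors trimmed adaptors with TrimGalore (0.3.3), aligned to hg19 with HISAT2 (2.05), removed non-unique fragments with Picard (2.0.1), and counted over UCSC genes with HTSeq (0.5.4p3). Use of strand in counting was not stated. The authors paired conditions by biological replicate.

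From the counts, edgeR (4.0.16, R 4.3.3) quasi-likelihood tests were fitted to all 12 libraries with TMM, its expression filter (minimum count 10, total 15), and replicate number as a block, with Benjamini-Hochberg adjustment over 13000 genes and calls at adjusted p under 0.05. The fit was tested on simulated data. Same-numbered libraries deviated together from their group means (r 0.0991 to 0.813 in 18 pairs, against -0.724 to 0.527 in 36 pairs of different numbers). This was clearest for replicate 3 (r 0.724 to 0.813). Replicates 1 and 2 were less distinct, as control replicate 2 had r 0.527 with HIF2A siRNA replicate 1 and 0.231 with HIF2A siRNA replicate 2. Replicates of a group differed by more than counting noise. CPM used TMM-scaled totals. Transcript lengths and exon overlaps came from GENCODE v44 (hg38), a different annotation from that of the counts, and promoters from RefSeq (GRCh38.p14), both matched by symbol (10 of 10). Paralog ratios added 0.5 counts. All members were named, with list genes that were called, PGAM4, PKM, the other paralogs with at least 10 counts in each library, and the genes most correlated with the members' mean (those most like LDHB are not reported here). Members and lists were chosen with earlier results of these data known.

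Alternatives were other scaling (RLE, upper quartile), other filters, no replicate block, DESeq2 (1.42.0), fewer libraries in the fit, each replicate or library left out, and no added count.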

Additional observations from a re-analysis of the deposited data

How the results depend on the processing

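The number of enzymes called depended on replicate 3 and on the pairing by replicate number. Without the replicate block, the enzymes called numbered 4 for HIF1A siRNA against control siRNA, 4 for HIF1A siRNA against HIF2A siRNA and 0 for both siRNAs against HIF1A siRNA, and the genes called 47, 55 and 8, with 2 for HIF2A siRNA against control siRNA, and 195 and 90 for the double knockdown against control and HIF2A siRNA. The block changed no call of the interaction. DESeq2 called 298 genes for HIF1A siRNA, 84 for HIF2A siRNA, 434 between these siRNAs, 818 and 403 for the double knockdown against HIF2A siRNA and HIF1A siRNA (2 enzymes in the last, ENO2 and LDHA), and 11 for the interaction. Without a filter on low counts, 55 genes were called for HIF2A siRNA and 4 for the interaction. With the 6 libraries compared alone in the fit, 3 genes were called for HIF2A siRNA, and 2609, 164 and 656 for the double knockdown against control, HIF2A and HIF1A siRNA (2 enzymes in the last), and with 9 libraries 11 for HIF2A siRNA.

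With each replicate number or library left out in turn, the enzymes called ranged from 5 to 9 for HIF1A siRNA against control siRNA and against HIF2A siRNA, from 6 to 10 for the double knockdown against control siRNA, from 6 to 9 against HIF2A siRNA and from 0 to 2 against HIF1A siRNA. The lowest number for each of these came without replicate 3, and for the last also with other replicates or libraries left out. HIF2A siRNA alone and the interaction stayed at 0 enzymes. The genes called ranged from 73 to 317, 1 to 49, 302 to 2307, 158 to 672, 26 to 442 and 107 to 311 for HIF1A siRNA, HIF2A siRNA, the double knockdown against control, HIF2A and HIF1A siRNA, and HIF1A against HIF2A siRNA, and from 0 to 3 for the interaction. The highest of most ranges came without HIF2A siRNA replicate 2 or control siRNA replicate 1. In HIF1A siRNA against control siRNA, ALDOC, TPI1, PGK1 and LDHA kept their calls in all 23 alternatives. GAPDH lost its call in 11, PGAM1 and ENO1 in 6 each, ALDOA in 2 and ENO2 in 1. The ENO2 call in the double knockdown against HIF1A siRNA was lost in 8 of 22 alternatives, namely the fit without the block and those without replicate 1, replicate 3, any 1 HIF1A siRNA library, or double knockdown replicate 1 or 3. LDHB was called higher in the double knockdown against control siRNA in 2 of 22, without HIF2A siRNA replicate 2 and with 6 libraries. The cause of these shifts was not tested.

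Values near 0 that were not called changed sign. GAPDH with HIF2A siRNA (-0.00403) was at 0.00178 with RLE scaling, 0.00936 with upper-quartile scaling, 0.00458 with at least 10 counts in every library, 0.00047 without the replicate block and 0.00177 with DESeq2, and LDHB in the double knockdown against HIF2A siRNA was at -0.000925 without the block. Over all the alternatives, log2 values of such genes ranged as follows. For HIF2A siRNA against control siRNA, the ranges were ALDOA -0.071 to 0.14, GAPDH -0.18 to 0.23, ENO2 -0.069 to 0.061 and LDHA -0.13 to 0.057. In the double knockdown against HIF2A siRNA, LDHB was at -0.083 to 0.18. For both siRNAs against HIF1A siRNA alone, they were GAPDH -0.037 to 0.14, PGK1 -0.13 to 0.090 and PGAM1 -0.10 to 0.18. Between HIF1A and HIF2A siRNA, LDHB was at -0.22 to 0.0036. For the interaction, they were GAPDH -0.26 to 0.32, PGK1 -0.33 to 0.019, PGAM1 -0.25 to 0.0041, ENO1 -0.23 to 0.13 and LDHB -0.21 to 0.14. The paralog ratio changes with HIF1A siRNA ranged from 1.38 to 1.54 for ALDOA and ALDOC, from 1.20 to 1.38 for ENO1 and ENO2 and from -1.38 to -1.15 for LDHA and LDHB as replicate numbers were left out, which leaves 4 pairs and no p under 0.05. Without the pairing they had an adjusted p of 0.005 each in an exact permutation test, the smallest that test allows. That test ignores the replicate numbers. With HIF2A siRNA the ratio changes ranged from -0.22 to 0.08, 0.33 to 0.41 and -0.45 to -0.27 as replicate numbers were left out. Reads shared between PGAM1 and its retrocopy PGAM4, or between overlapping genes, could not be told apart here.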
